A study of Oryza sativa with 6 samples.

Results

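The histone H2A and H2B genes of rice were followed in seedlings altered for OsRDR3, an RNA-dependent RNA polymerase, the class of enzyme that copies RNA into double-stranded RNA. Members were the loci of either deposited table whose UniProt protein name contained Histone H2A or Histone H2B, in capitals or not. They numbered 15 of the 6922 loci listed in either table, of which 8 were H2A and 7 were H2B. Of these, 7 stood in the table of the libraries labelled knock-down and 11 in that of over-expression, with 3 loci in both and 12 in 1 table. Of all 6922 loci, 1714 were listed in both.

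The plants were 5-week-old seedlings of Pusa Basmati 1, an indica rice cultivar, sequenced as RNA in 6 libraries. These were 2 libraries of wild type, 2 of the transgenic line labelled OE (over-expression) and 2 of the line labelled KD (knock-down). The sources used here do not give the construct, the promoter, the number of lines or the number of plants per library, nor whether 2 libraries of a group came from separate plants. The authors deposited 1 pooled FPKM value (fragments per kilobase of transcript and library size) per group and locus, so no spread between libraries can be shown, and the p-values measure at most the spread between these libraries, which could be technical.

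DNA in the nucleus is wound around histones. Dimers of H2A and H2B sit on both sides of a tetramer of H3 and H4, and this particle, the nucleosome, is the unit of chromatin. Plants carry many gene copies of the core histones. Most are transcribed when DNA is copied, so their mRNAs are abundant in dividing cells, while variants such as H2A.X, which is phosphorylated next to DNA breaks, have tasks of their own.

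The highest unadjusted p in either table was 0.05, and a locus outside a table is not analysed there. Every listed member therefore already differed from wild type at that level, and counts of listed members are a description. Calls are those of the authors' Cuffdiff test with q under 0.05, adjusted by them over the loci they tested. The 4341 loci of the knock-down table had a median log2 fold change of -0.58 and the 4295 loci of the over-expression table one of 0.67, so each table leans to 1 side, and the called members are also given relative to these medians. Called loci split into 766 higher and 1592 lower in the first table and into 1626 higher and 585 lower in the second, which centring on the medians changed to 895 and 1462, and to 1381 and 829. Depth per library is unknown because the tables hold no counts.

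The targeted gene was looked at first, since it checks the labels. BGIOSGA002194, named RNA-dependent RNA polymerase in the files and not paired there with the name OsRDR3, rose from 0.198 to 58.7 FPKM in over-expression per the authors' deposited table (q = 0.00105). Under the knock-down label its rise was from 0.190 to 69.5 FPKM per the authors' deposited table (q = 0.000868). The other locus of that name, BGIOSGA009008, was listed under the knock-down label and rose from 4.40 to 7.63 FPKM per the authors' deposited table (q = 0.000868). If BGIOSGA002194 is the target and its reads come from the gene itself, which was not tested, its level goes against the knock-down label, and directions below are therefore those of libraries labelled knock-down, not of a loss of the gene. Green-leaf transcripts, chlorophyll a-b binding proteins and the small subunit of Rubisco, were abundant, with 21 listed loci that summed to 24560 FPKM in wild type and to 7656 FPKM under the knock-down label. No locus of the root list or of the floral organ list was listed in either table, so these tissues could not be assessed.

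Positions are given as the files have them, on a genome build that is not given in the sources used here. Of the 7 H2B loci, 4 lay on the short stretch of chromosome 1 between 3153522 and 3354983, which spans 201 kb, in the order H2B.4, H2B.7, H2B.6 and H2B.5. H2B.7 and H2B.6 were 11.9 kb apart and H2B.6 and H2B.5 were 22.9 kb apart. The RefSeq table of japonica rice (ASM3414082v1) holds 6 of the 7 H2B names exactly, and it lists H2B.3, H2B.4, H2B.10, H2B.7, H2B.6, H2B.5 and H2B.11 on chromosome 1 in that order. Values for H2B.3, H2B.10 and H2B.11 are not analysed here.

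A second pair of neighbours joined the families. On chromosome 3, H2B.1 at 10233180 to 10233639 lay 5.66 kb from H2A.5 at 10239298 to 10239879. H2B.9 was on chromosome 5 from 29961219 to 29961678 and H2B.2 on chromosome 8 from 25899694 to 25900147. The other H2A loci were spread over chromosomes 3, 5, 7, 8, 10 and 12. All 7 H2B models had an end minus start between 453 and 468 bases and divisible by 3, against 42.0% and 41.7% of all listed models in the 2 tables, and 1 of the 8 H2A models was divisible by 3, with spans from 502 to 1997 bases.

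All 15 loci carried the Gene Ontology terms nucleosome and protein heterodimerization activity. Only H2A.5 (BGIOSGA010990) among them held several gene identifiers, OsI_002060 and OsI_010711. Such a list need not mean a merged value. The H4 loci BGIOSGA029303 and BGIOSGA011733 hold the same 10 identifiers, yet stood at 22.3 and 2.21 FPKM in wild type of the over-expression table. Whether the FPKM of H2A.5 belongs to 1 gene is unknown. How reads that match several near-identical copies were divided is not given in the sources used here, so each single copy of either family is uncertain.

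The first comparison asks how the H2A and H2B transcripts stood in the libraries labelled knock-down. H2A.5, H2A.2, H2B.9 and H2B.5 fell there, by between 2.24-fold and 4.24-fold per the authors' deposited table. The other listed members, H2A.4, H2B.7 and H2B.6, were below wild type with q of 0.05 or more. That makes 4 called of 7 listed, all 4 lower. Of all listed loci, 36.7% were called lower and 17.6% higher, and 65.1% were lower with or without a call. At q under 0.01, 2 of the 7 were called lower, H2A.2 and H2B.5, beside 22.2% of all listed loci called lower. In both directions together, 1408 of the 4341 listed loci were called at that threshold. Relative to the table's median, the log2 fold changes of the 4 were -1.50 for H2A.5, -0.58 for H2A.2, -0.89 for H2B.9 and -0.79 for H2B.5. Summed over listed loci, H2A went from 105.8 FPKM in wild type to 57.9 FPKM and H2B from 43.8 to 16.7 FPKM. In bulk seedlings, fewer cells of a type and less RNA per cell cannot be told apart.

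**Figure D1:**
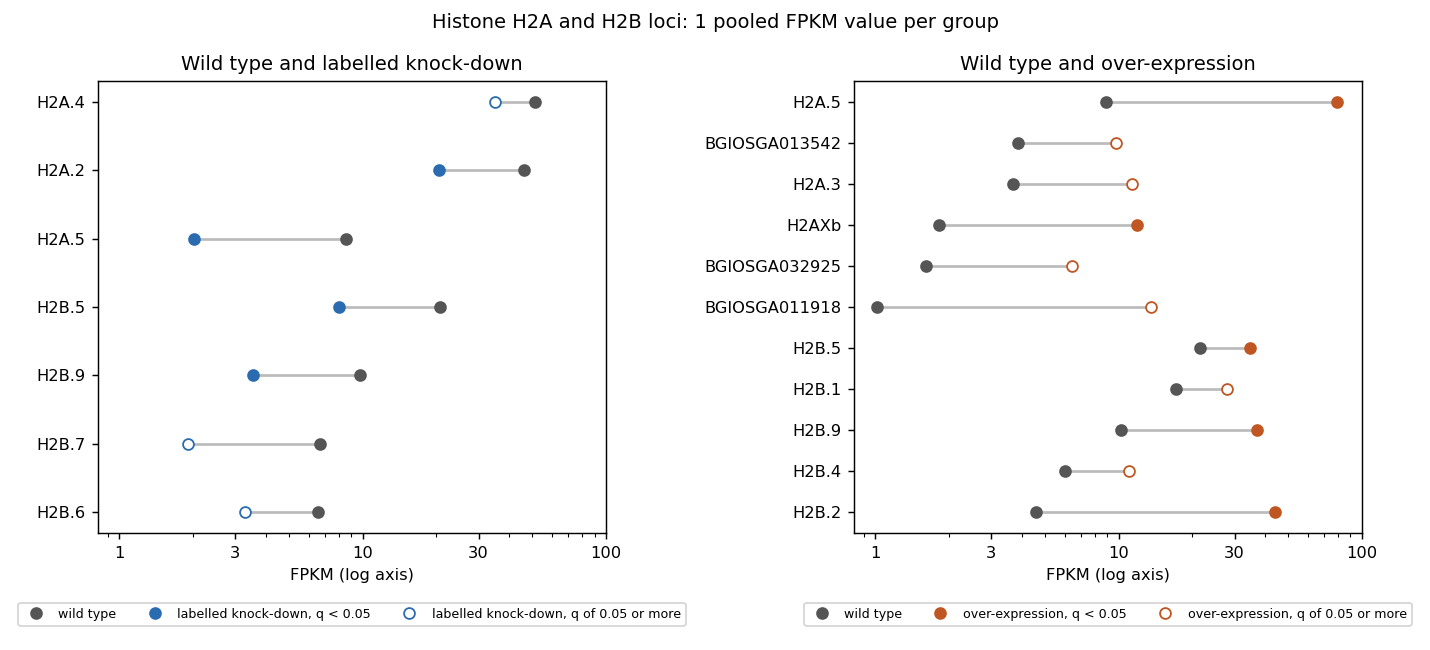
FPKM on a log axis for each listed H2A and H2B locus, with 1 pooled value per group and no error bar because the tables hold none. Grey points are wild type and coloured points the transgenic group, filled where q was under 0.05. All 7 loci on the left lie below wild type and all 11 on the right above it.

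Among the 3 H2A loci listed under the knock-down label, H2A.4 and H2A.2 were the most abundant in wild type. H2A.4 (BGIOSGA017910, chromosome 5, 24049135 to 24049703) stood at 51.0 FPKM in wild type and at 35.2 FPKM under the knock-down label per the authors' deposited table, with a log2 fold change of -0.54 and q = 0.0754. It did not pass, and relative to the median of listed loci its difference changed sign to 0.047. H2A.2 (BGIOSGA025900, chromosome 7, 19653568 to 19654211) fell from 46.2 to 20.7 FPKM per the authors' deposited table, a log2 fold change of -1.16 with q = 0.000868. These 2 transcripts were close in wild type and further apart in the libraries labelled knock-down, a difference between loci that was not tested.

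H2A.5 had the largest fold change of the 7. It fell from 8.56 to 2.02 FPKM per the authors' deposited table, a log2 fold change of -2.08 with q = 0.0248, and 157 of the 4341 listed loci had a log2 fold change as low or lower. In FPKM the drop was smaller than that of H2A.2, which held 53.3% of the difference in the H2A sum, while H2A.4 held 33.0% and H2A.5 13.7%. H2A.4 accordingly made up 48.2% of the H2A sum in wild type and 60.8% in the libraries labelled knock-down.

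The 4 H2B genes had log2 fold changes from -1.81 to -0.999, a narrower range than that of the H2A genes. H2B.5 (BGIOSGA002810) fell from 20.8 to 8.01 FPKM per the authors' deposited table, with a log2 fold change of -1.37 and q = 0.00228. H2B.9 (BGIOSGA020410) fell from 9.80 to 3.54 FPKM per the authors' deposited table, with a log2 fold change of -1.47 and q = 0.0342. H2B.5 held 47.4% of the H2B sum in wild type and 47.9% in the libraries labelled knock-down. The share of H2B.7 went from 15.3% to 11.4% and that of H2B.6 from 14.9% to 19.5%.

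The neighbours H2B.7 and H2B.6 started from similar levels. H2B.7 (BGIOSGA002379) stood at 6.71 FPKM in wild type and at 1.91 FPKM under the knock-down label per the authors' deposited table, with a log2 fold change of -1.81 and q = 0.0568. H2B.6 (BGIOSGA002377) stood at 6.54 and 3.27 FPKM per the authors' deposited table, with a log2 fold change of -0.999 and q = 0.181. Neither passed, although the fold of H2B.7 exceeded those of H2B.5 and H2B.9, which did.

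The second comparison asks the same of over-expression. H2A.5, H2AXb, H2B.2, H2B.9 and H2B.5 rose there, and the largest levels reached were 79.5 FPKM for H2A.5 and 44.0 FPKM for H2B.2 per the authors' deposited table. The other 6 listed members were above wild type with q of 0.05 or more. That makes 5 called of 11 listed, all 5 higher. Of all listed loci, 37.9% were called higher and 13.6% lower, and 67.8% were higher with or without a call. At q under 0.01, 3 of the 11 were called higher, H2A.5, H2B.2 and H2B.9, beside 21.2% of all listed loci called higher. In both directions together, 1144 of the 4295 listed loci were called at that threshold. Relative to the table's median, the log2 fold changes of the 5 were 2.49 for H2A.5, 2.03 for H2AXb, 2.59 for H2B.2, 1.19 for H2B.9 and 0.02 for H2B.5. Summed over listed loci, H2A went from 20.9 to 132.6 FPKM, 6.34-fold, and H2B from 59.8 to 155.1 FPKM, 2.59-fold.

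**Figure D2:**
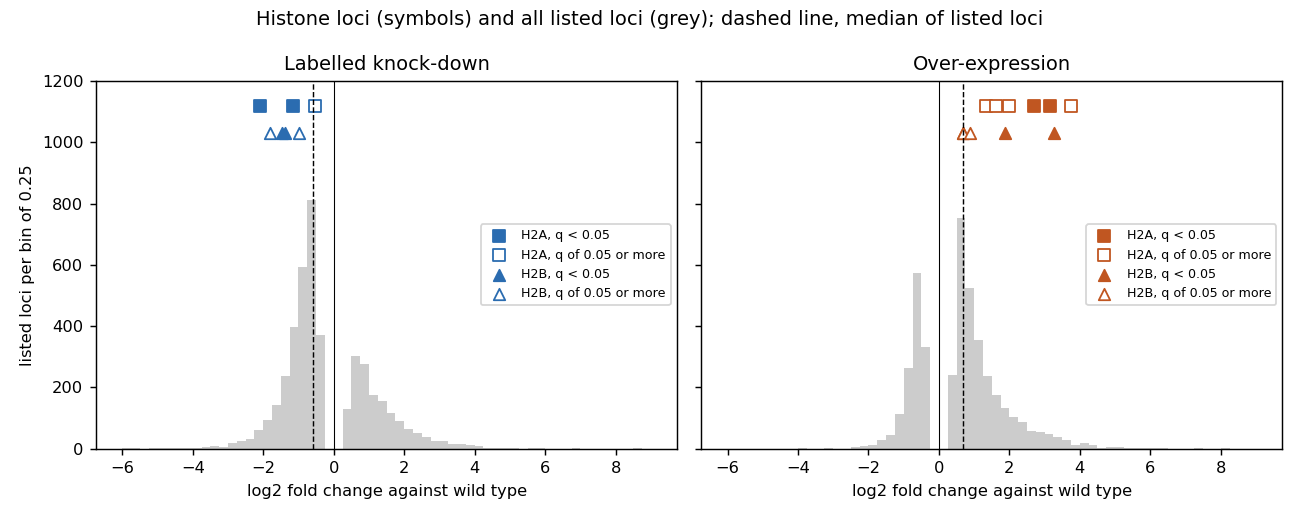
Log2 fold change against wild type, with grey bars counting all listed loci in bins of 0.25 and symbols marking H2A (squares) and H2B (triangles), filled where q was under 0.05; heights of symbols carry no value. The gap around 0 is where loci were not listed, the dashed lines stand at -0.58 and 0.67, and H2B.5 and H2B.1 overlap on the right at 0.69 and 0.70.

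H2A.5 was the H2A locus with the largest difference in FPKM here. It rose from 8.91 to 79.5 FPKM per the authors' deposited table, 8.92-fold, with a log2 fold change of 3.16 and q = 0.00105. It held 42.6% of the H2A sum in wild type and 60.0% in over-expression, and 63.2% of the difference in the sum. The uncertainty over its 2 gene identifiers applies here too. Without H2A.5, the other 5 H2A loci had a summed log2 ratio of 2.14 in place of 2.66.

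H2AXb (BGIOSGA036075, chromosome 12, 16657650 to 16658165) carries the name of the H2A.X variant, which in animals and plants is phosphorylated near broken DNA. It rose from 1.83 to 11.9 FPKM per the authors' deposited table, 6.49-fold, with a log2 fold change of 2.70 and q = 0.0447. It stayed a minor part of the listed H2A sum, 8.75% in wild type and 8.96% in over-expression.

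The remaining 4 H2A loci did not pass. BGIOSGA011918 (chromosome 3, 3835768 to 3836341) had the largest fold of the 11, from 1.02 to 13.6 FPKM per the authors' deposited table, with a log2 fold change of 3.74 and q = 0.0692. With a pseudocount of 1 FPKM its log2 fold change was 2.85, below the 3.02 of H2A.5 and the 3.01 of H2B.2, so on that scale its fold was not the largest. H2A.3 (BGIOSGA028706, chromosome 8, 21877366 to 21877868) stood at 3.68 and 11.4 FPKM per the authors' deposited table, with q = 0.0579.

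BGIOSGA013542 (chromosome 3, 34749535 to 34751532) stood at 3.88 and 9.81 FPKM per the authors' deposited table, with q = 0.124. BGIOSGA032925 (chromosome 10, 12995205 to 12995995) stood at 1.61 and 6.44 FPKM per the authors' deposited table, with q = 0.117. It was the 1 member whose annotation also named flower development, detection of temperature stimulus and defense response to bacterium. These 2 loci and BGIOSGA011918 are named Histone H2A with no number or variant in the files.

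Within H2B, the order of the loci changed. H2B.2 (BGIOSGA028894), the lowest H2B locus of this table in wild type at 4.60 FPKM, rose to 44.0 FPKM per the authors' deposited table, 9.58-fold, with a log2 fold change of 3.26 and q = 0.00105. It went from 7.68% to 28.4% of the H2B sum and became its largest member. H2B.9 rose from 10.2 to 37.2 FPKM per the authors' deposited table, with a log2 fold change of 1.86 and q = 0.00105.

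Of the 5 H2B loci listed in over-expression, the most abundant in wild type had the smallest fold. H2B.5 rose from 21.7 to 34.8 FPKM per the authors' deposited table, 1.61-fold, with a log2 fold change of 0.69 and q = 0.0475, and relative to the median of listed loci it stood at 0.02. In signed log2 fold change it was thus near the middle of the listed loci, with 2109 of the 4295 as high or higher. Those 2109 were among the 2912 listed loci above wild type. The share of H2B.5 in the H2B sum went from 36.2% to 22.5%. H2B.1 (BGIOSGA012343) stood at 17.3 and 28.0 FPKM per the authors' deposited table, with a log2 fold change of 0.70 and q = 0.069. H2B.4 (BGIOSGA002785) stood at 6.03 and 11.1 FPKM per the authors' deposited table, with a log2 fold change of 0.87 and q = 0.133.

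The neighbours H2B.1 and H2A.5 differed in size of response. H2B.1 had 1.62 times its wild-type level in over-expression and H2A.5 had 8.92 times, at 5.66 kb from each other. On chromosome 1, H2B.4 and H2B.5 had smaller log2 fold changes, 0.87 and 0.69, per the authors' deposited table, under the 1.86 of H2B.9 and the 3.26 of H2B.2 on other chromosomes. Whether loci differed from each other was not tested, because pooled values give no error for such a difference.

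**Figure D3:**
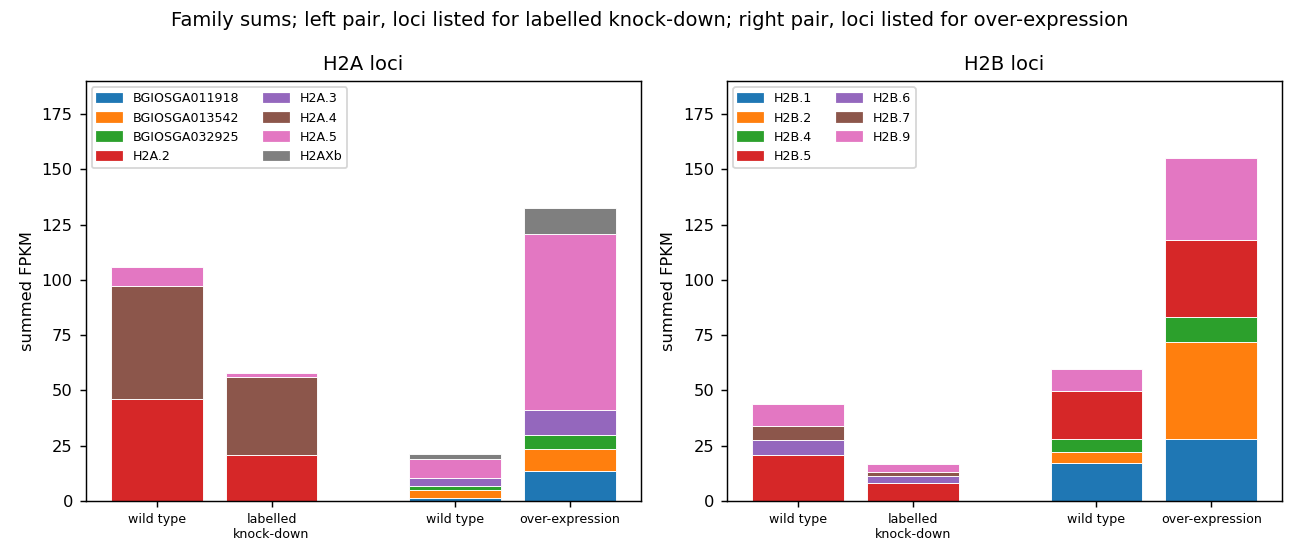
Summed FPKM of the listed H2A loci (left) and H2B loci (right), stacked by locus, for wild type and the transgenic group of each table. The pairs hold different loci, so the heights of the wild-type bars are not comparable between pairs; H2A.5 fills most of the over-expression H2A bar, at 79.5 of 132.6 FPKM.

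The 2 tables list different loci, so their family sums do not describe the same genes. H2A.2 and H2A.4, which made up most of the H2A sum of the knock-down table, are not analysed in over-expression, and H2B.2 is not analysed in the libraries labelled knock-down. In total 6 of the 15 loci were called in at least 1 table. Of all listed loci, 2358 of 4341 under the knock-down label and 2211 of 4295 in over-expression were called in either direction. These are counts per table. How many of all 6922 loci were called in at least 1 table was not counted, so the 6 of 15 has no like figure beside it.

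H2A.5, H2B.9 and H2B.5 were listed and called in both tables. Both comparisons share the same wild-type libraries, so their values are set side by side and the line labelled knock-down was not tested against over-expression. The wild-type FPKM of the over-expression table was 1.04 times that of the knock-down table over 1714 shared loci, with a range from 1.04 to 1.05; levels set across the tables carry this difference in scale. In the order knock-down label, wild type of that table, wild type of the other table and over-expression, H2A.5 stood at 2.02, 8.56, 8.91 and 79.5 FPKM per the authors' deposited tables. H2B.9 stood at 3.54, 9.80, 10.2 and 37.2 FPKM per the authors' deposited tables, and H2B.5 at 8.01, 20.8, 21.7 and 34.8 FPKM.

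All 3 loci were lowest in the libraries labelled knock-down and highest in over-expression. H2B.5 was the most abundant of the 3 in wild type and under the knock-down label, and the least abundant in over-expression. Summed over the 2 H2B loci, the level was 2.65 times lower under the knock-down label and 2.26 times higher in over-expression, each against the wild type of its own table.

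**Figure D4:**
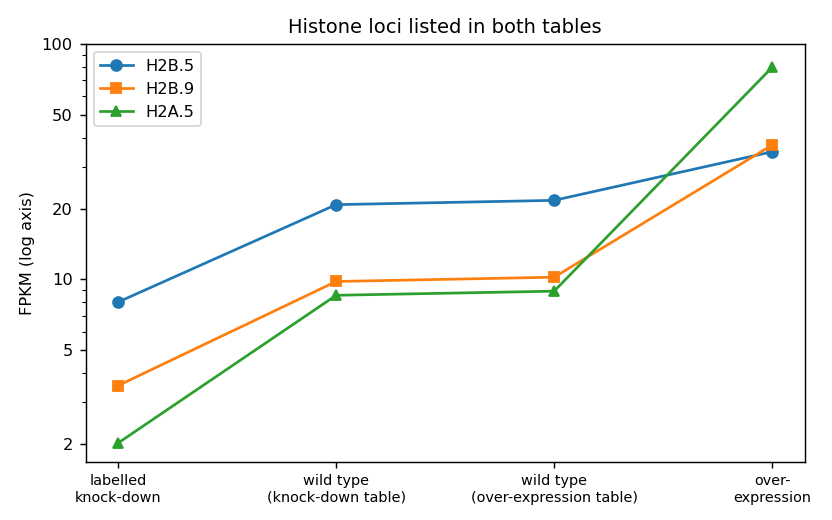
FPKM on a log axis of the 3 loci listed in both tables, with 1 pooled value per group; lines join the values of a locus. H2A.5 spans the widest range, from 2.02 to 79.5 FPKM, and H2B.5 the narrowest, from 8.01 to 34.8 FPKM; values from the 2 tables were scaled separately.

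Loci with a protein name or symbol were ranked by how near their pair of log2 fold changes, knock-down label and over-expression, came to that of 1 member of each family, the one with the largest FPKM summed over groups among members listed in both tables, over 330 candidates and just 2 values each. None lay close to H2A.5, as the nearest of them, a tubulin beta chain (BGIOSGA011667), was at a distance of 1.70 with log2 fold changes of -0.80 and 2.04 per the authors' deposited tables. A reticulon-like protein (BGIOSGA003040), an aldehyde dehydrogenase (BGIOSGA014634), a serine/threonine protein kinase (BGIOSGA028744) and ACT3, an actin, followed at 1.72 to 1.96. H2B.5 had near neighbours, a D-3-phosphoglycerate dehydrogenase (BGIOSGA026901) at 0.14, a glucose-1-phosphate adenylyltransferase (BGIOSGA030039) at 0.16, HOX33 at 0.21, a DNA helicase (BGIOSGA003718) at 0.23 and an aldehyde dehydrogenase (BGIOSGA037093) at 0.28. By the Cuffdiff q, the helicase and BGIOSGA037093 were called in neither comparison. The tubulin was not called under the knock-down label (q = 0.130).

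The partners of H2A and H2B in the nucleosome were sparse in the tables. In the libraries labelled knock-down, 1 H3 and 1 H4 locus were listed, both below wild type and 0 called by Cuffdiff at q under 0.05. Like every listed locus, both had an unadjusted p of at most 0.05. The H3.3 locus BGIOSGA012789, the variant laid down outside DNA replication, stood at 232.5 and 170.2 FPKM per the authors' deposited table (q = 0.0726). The H4 locus BGIOSGA031485, which holds 10 gene identifiers, stood at 27.0 and 13.5 FPKM per the authors' deposited table (q = 0.0904).

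In over-expression 4 H3 and 2 H4 loci were listed, all 6 above wild type and 2 of them called higher. Of all loci listed there, 67.8% were above wild type and 37.9% were called higher. The H3.2 locus BGIOSGA017977, with 4 gene identifiers, rose from 1.27 to 24.5 FPKM per the authors' deposited table (q = 0.0285). The H3.3 locus BGIOSGA016512 rose from 30.2 to 50.01 FPKM per the authors' deposited table (q = 0.0298). The median log2 fold change of these 6 was 1.73, beside 2.35 for the 6 H2A loci, 0.87 for the 5 H2B loci and 0.67 for all listed loci. No linker histone H1 was listed by that name in either table.

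Of the chaperones and enzymes that handle histones, 5 loci were listed under the knock-down label, 4 below wild type and 1 above. Of the 5, 2 were called lower and 0 higher, beside 36.7% of all listed loci called lower and 17.6% called higher. The chaperone gene NAP1;1 (BGIOSGA022322), whose product carries H2A and H2B dimers, fell from 13.5 to 7.31 FPKM per the authors' deposited table (q = 0.000868). A histone deacetylase (BGIOSGA037104), an enzyme that removes acetyl groups from histones, fell from 5.30 to 1.67 FPKM per the authors' deposited table (q = 0.000868). In over-expression 3 such loci were listed, 1 above wild type and 2 below, and the same deacetylase was the 1 called. It fell there too, from 5.53 to 2.39 FPKM per the authors' deposited table (q = 0.00348). Of all loci listed there, 13.6% were called lower.

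Markers of dividing cells were a list of replication and mitosis proteins together with every locus named kinesin. The name kinesin-like protein does not say whether a locus acts in cell division. Under the knock-down label 2 loci were listed, both kinesins, which fell by 0.74 and 0.67 on the log2 scale beside a median of -0.58 for all listed loci, and the summed level of the list went from 20.6 to 12.5 FPKM. In over-expression 18 were listed, 17 above wild type and 1 below. Of the 18, 14 were called higher and 0 lower, beside 37.9% of all listed loci called higher. The sum went from 37.3 to 74.4 FPKM, of which kinesins made up 28.3 and 49.8 FPKM. Wild-type values of this list went as low as 0.165 FPKM, and its 5 DNA replication licensing factors lay between 0.228 and 0.498 FPKM in wild type. PCNA (BGIOSGA009238), which holds DNA polymerase on its template, rose from 4.20 to 11.1 FPKM and the mitotic cyclin CYCB2-2 (BGIOSGA020504) from 1.02 to 2.72 FPKM per the authors' deposited table. Of the green-leaf markers, all 21 listed under the knock-down label were below wild type. Of these, 18 were called lower, beside 36.7% of all listed loci. Of 14 listed in over-expression, 13 were below wild type and 1 above, with 4 called lower and 1 called higher. Of all loci listed there, 13.6% were called lower and 37.9% higher. The part of these markers in the histone values was not tested.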

How the data were processed

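Trizol-extracted total RNA was sequenced from libraries made by Illumina protocols, per the labels' protocols. The submitters' processing notes name Cufflinks 2.2.1 and Cuffdiff. The sources used here do not give the aligner, the genome build, the read depth or the handling of multiply mapped reads. Both files hold FPKM values made by the authors, with 1 pooled value for each group and locus, per the file headers. Recomputing showed that the deposited log2 fold change is taken from the FPKM ratio without a pseudocount. P-values and q-values are the authors' own, as deposited. There were 0 unassigned columns of single libraries.

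The deposited values were summarised with Python 3.11.15 and pandas 2.3.3 through functions tested on simulated data. No new test was made, because a pooled value gives no spread. Members were matched to protein names without regard to capitals, which adds the names beginning Probable histone. Every member is named. Companion lists were matched to protein names, and up to 4 called loci of largest FPKM per list could be named. The 5 loci nearest to a member by Euclidean distance of the 2 log2 fold changes were named. CYCB2-2 and PCNA were chosen after their values were seen. The members and lists were chosen with earlier results of these data known. Alternatives were pseudocounts of 1 and 0.1, centring, a minimum of 1 FPKM in the higher group, q under 0.01 and leaving out loci.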

Additional observations from a re-analysis of the deposited data

How the results depend on the processing

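No paired analysis was possible because the tables hold 1 pooled value per group, and for the same reason leaving out single libraries was not run. At q under 0.01, the called loci went from 4 to 2 under the knock-down label and from 5 to 3 in over-expression. Matching names with a capital Histone, an alternative added after seeing the data, also gave 2 and 3, with median log2 fold changes of -1.42 and 1.60. Centring, which keeps the deposited q-values, left the counts at 4 and 5. The minimum of 1 FPKM could remove no member, as the lowest value of a member in its higher group was 6.44 FPKM. Leaving out the locus of several identifiers, called in both tables, gave 3 and 4 by construction.

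The median log2 fold changes of listed members, -1.37 and 1.86, became -1.25 and 1.51 with a pseudocount of 1, -1.36 and 1.85 with 0.1, -0.79 and 1.19 after centring, and -1.27 and 1.75 without the locus of several identifiers. The log2 ratios of sums under the knock-down label were -0.87 for H2A and -1.39 for H2B. They became -1.27 and -1.40 without the most abundant locus and -0.29 and -0.81 after scaling by the median of listed loci, and H2A without H2A.5 gave -0.80. In over-expression they were 2.66 and 1.38, and became 2.14 and 1.01 without the most abundant locus and 1.99 and 0.71 after scaling. H2A without the locus of several identifiers, again H2A.5, gave 2.14. Of single loci, H2A.4 under the knock-down label reversed on centring, from -0.54 to 0.047. The cause was not tested, beyond the construction of centring, which subtracts the table's median. Of the other single-locus values, 52 moved in size and kept their direction and 1 did not move at 2 decimals. Depth limits cannot be stated, as no counts were used.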

Other observations

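Other loci annotated to the nucleosome were outside the H2A and H2B names. Under the knock-down label 9 such loci were listed, 8 below wild type and 1 above. Of the 9, 6 were called lower and 0 higher, beside 36.7% of all listed loci called lower and 17.6% called higher. Besides NAP1;1, the 6 called loci included the histone chaperone gene for NAP1-related protein 2 (BGIOSGA006189), at 16.4 and 10.4 FPKM per the authors' deposited table (q = 0.0336). The most abundant was BGIOSGA016012 (chromosome 4, 7669605 to 7670285), an uncharacterized protein, which fell from 100.3 to 35.7 FPKM per the authors' deposited table (q = 0.000868).

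In over-expression 6 were listed, 4 above wild type and 2 below. Of the 6, 2 were called higher and 2 lower, beside 37.9% and 13.6% of all listed loci. BGIOSGA016012 fell there too, from 104.5 to 70.3 FPKM per the authors' deposited table (q = 0.022), in the opposite direction to every listed H2A and H2B locus of that table. BGIOSGA025281, also uncharacterized, fell from 19.6 to 9.95 FPKM under the knock-down label (q = 0.000868) and rose from 20.5 to 29.7 FPKM in over-expression (q = 0.0491) per the authors' deposited tables. Centred on the median of its table, 0.67, that rise of 0.54 turns negative. BGIOSGA035841 rose from 1.42 to 4.55 FPKM per the authors' deposited table (q = 0.00105).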
